A study of Mus musculus with 30 samples.

Results

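Immediate early genes are transcribed within minutes of a stimulus without new protein synthesis. In 15 aged mice, 10 of them were measured in RNA of the dissected hippocampus and of the remaining brain, called brain here: Fos, Fosb, Junb, Egr1, Egr2, Arc, Npas4, Nr4a1, Ier2 and Dusp1. The members were found by matching the accession of each array probe to these symbols, and 10 of the 36717 genes and transcripts on the array were taken. Each was read by 1 probe, which for Fos was spotted 10 times on every array and for the others once. All 10 were well above background on all 30 arrays, apart from Ier2 in the hippocampus of the 3xTgAD male mouse 5.

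The study asked what the loss of B cells does in 3xTgAD mice, a model of Alzheimer's disease whose alleles include mutant human APP and MAPT transgenes. The B-cell-deficient 3xTgAD-BKO mice (JHT_3xTgAD in the labels) also carry the deletion of the immunoglobulin JH locus, and JHT mice carry the deletion without the transgenes. RNA came from 2 female and 3 male 3xTgAD mice, 2 female and 3 male 3xTgAD-BKO mice, 3 female WT mice and 2 female JHT mice, all labelled C57BL/6j and 15 to 20 months of age. All were perfused with PBS after euthanasia with carbon dioxide, with 1 array for each mouse and tissue. Per the methods the C57BL/6j females were purchased and the other strains were bred in house. There were no WT or JHT males. Hippocampal and brain samples that share a number in their titles, with the same genotype and sex, were taken to come from 1 mouse, which the labels do not state outright.

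In neurons, calcium entry and growth factor signalling act through CREB and through SRF with its partners, factors that are in place on many of these promoters before the stimulus. Fos, Fosb and Junb encode subunits of the AP-1 transcription factor, Egr1 and Egr2 encode zinc finger factors, Npas4 a factor induced by calcium entry, and Nr4a1 an orphan nuclear receptor. Arc encodes a synaptic protein that takes part in the endocytosis of AMPA receptors, Dusp1 a phosphatase that switches off MAP kinases, and Ier2 a nuclear protein. Most of these genes are also induced outside neurons, for example in vessel and immune cells, whereas Npas4 and Arc are mainly neuronal. In whole tissue, fewer cells of a type and less RNA per cell cannot be told apart.

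The 250 bases before the start site are shown for 5 of the members, whose windows share the binding motif of CREB. Whether the motif bears on the levels of the members was not tested. The sequences were taken from RefSeq on build GRCm38.p6 and are written 5′ to 3′ on the strand of the gene. Capitals mark the CRE core TGACG on either strand, where both strands of a full CRE, TGACGTCA, overlap. The windows lie at chr12:85473640-85473889 on the plus strand for Fos, chr7:19310046-19310295 on the minus strand for Fosb, chr19:4989972-4990221 on the minus strand for Npas4, chr15:101266596-101266845 on the plus strand for Nr4a1 and chr17:26508473-26508722 on the minus strand for Dusp1.
Fos: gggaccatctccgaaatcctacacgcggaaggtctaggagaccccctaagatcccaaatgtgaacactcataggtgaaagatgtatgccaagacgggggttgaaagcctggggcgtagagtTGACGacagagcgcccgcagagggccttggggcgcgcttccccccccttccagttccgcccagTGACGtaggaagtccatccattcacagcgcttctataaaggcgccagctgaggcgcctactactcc
Fosb: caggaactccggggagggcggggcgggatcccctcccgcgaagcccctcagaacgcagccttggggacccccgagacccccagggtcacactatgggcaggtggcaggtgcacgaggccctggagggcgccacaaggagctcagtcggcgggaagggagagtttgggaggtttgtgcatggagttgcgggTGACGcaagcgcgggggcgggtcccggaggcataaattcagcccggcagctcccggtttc
Npas4: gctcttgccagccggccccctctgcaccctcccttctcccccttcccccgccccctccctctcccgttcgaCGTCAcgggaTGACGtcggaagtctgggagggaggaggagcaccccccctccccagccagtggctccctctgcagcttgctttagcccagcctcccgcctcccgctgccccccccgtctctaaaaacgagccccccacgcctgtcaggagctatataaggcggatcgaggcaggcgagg
Nr4a1: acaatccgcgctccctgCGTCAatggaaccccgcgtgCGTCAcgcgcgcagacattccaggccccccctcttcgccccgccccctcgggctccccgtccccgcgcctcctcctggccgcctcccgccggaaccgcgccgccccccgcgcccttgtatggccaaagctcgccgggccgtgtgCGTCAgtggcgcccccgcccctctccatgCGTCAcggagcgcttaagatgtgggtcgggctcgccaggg
Dusp1: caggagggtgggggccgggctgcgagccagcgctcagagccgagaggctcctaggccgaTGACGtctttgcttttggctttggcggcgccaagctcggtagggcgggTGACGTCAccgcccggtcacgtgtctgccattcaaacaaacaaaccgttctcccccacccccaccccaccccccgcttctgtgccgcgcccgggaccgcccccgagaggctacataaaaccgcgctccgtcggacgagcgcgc
Windows were read for 7 members and not for Arc, Egr1 and Ier2. Each of the 7 held at least 1 CRE core in a window, against 17.8% of all 32851 windows of this length and 25.4% of the 14726 windows with at least 54% G or C. The Nr4a1 window held 4 CRE cores, Dusp1 3, Fos and Npas4 2 each, and Fosb and Junb 1 each. Egr2 has 5 annotated starts, of which the windows of 3 held 2 CRE cores each and the other 2 none, so that it had more chances of a match than a single window. Dusp1 was the member with a full CRE, which 1.55% of all windows held. The CArG box, the motif of SRF, was matched in 4 of the 5 Egr2 windows (1.47% of all windows), the EGR motif GCGNGGGCG in Fosb and Nr4a1 (4.7%), TATAAA in Fos (12.4%) and the AP-1 motif TGANTCA in no member (6.75%). These matches describe letters and not occupied sites.

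The share of spots well above background was 54.02 to 63.6% on the 15 brain arrays and 54.97 to 60.01% on the 15 hippocampal arrays. The 30 arrays came from 4 slides. In the hippocampus mice 0 to 7 lay on slide 1 and mice 8 to 14 on slide 2, and in the brain mouse 0 lay on slide 2, mice 1 to 8 on slide 3 and mice 9 to 14 on slide 4. All WT and JHT arrays therefore lay on other slides than the 3xTgAD arrays, so that genotype and slide cannot be told apart in those comparisons except through the 3xTgAD-BKO males, whose arrays were spread over the slides of each tissue. By limma, 3 of 4 CA field markers and 3 of 5 dentate granule cell markers were called higher in the hippocampus, against 25.1% of all genes, 1 dentate marker, Calb1, was called lower there, and all 6 striatum markers were called higher in the brain without hippocampus, against 26%. The hippocampal array of the 3xTgAD-BKO male mouse 0 had 432 outlier spots, against 102 to 160 on the brain arrays and a median of 122 in the hippocampus.

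The members varied more between mice than most genes. The SD of Fos over the 15 mice was 0.95 log2 units in the hippocampus and 0.93 in the brain, above that of 98.8% and 99.6% of the 20118 and 21017 genes well above background there, whose median SDs were 0.23 and 0.18. Egr2 and Npas4 stood as high, with SDs of 0.82 and 0.94 in the hippocampus and 1.01 and 0.84 in the brain. Dusp1 varied least in the hippocampus with an SD of 0.39 (percentile 81) and Fosb in the brain with 0.24 (percentile 73.3). Levels are given here as quantile-normalized log2 signals of a probe, so they compare mice and tissues but not 1 gene with another.

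**Figure D1:**
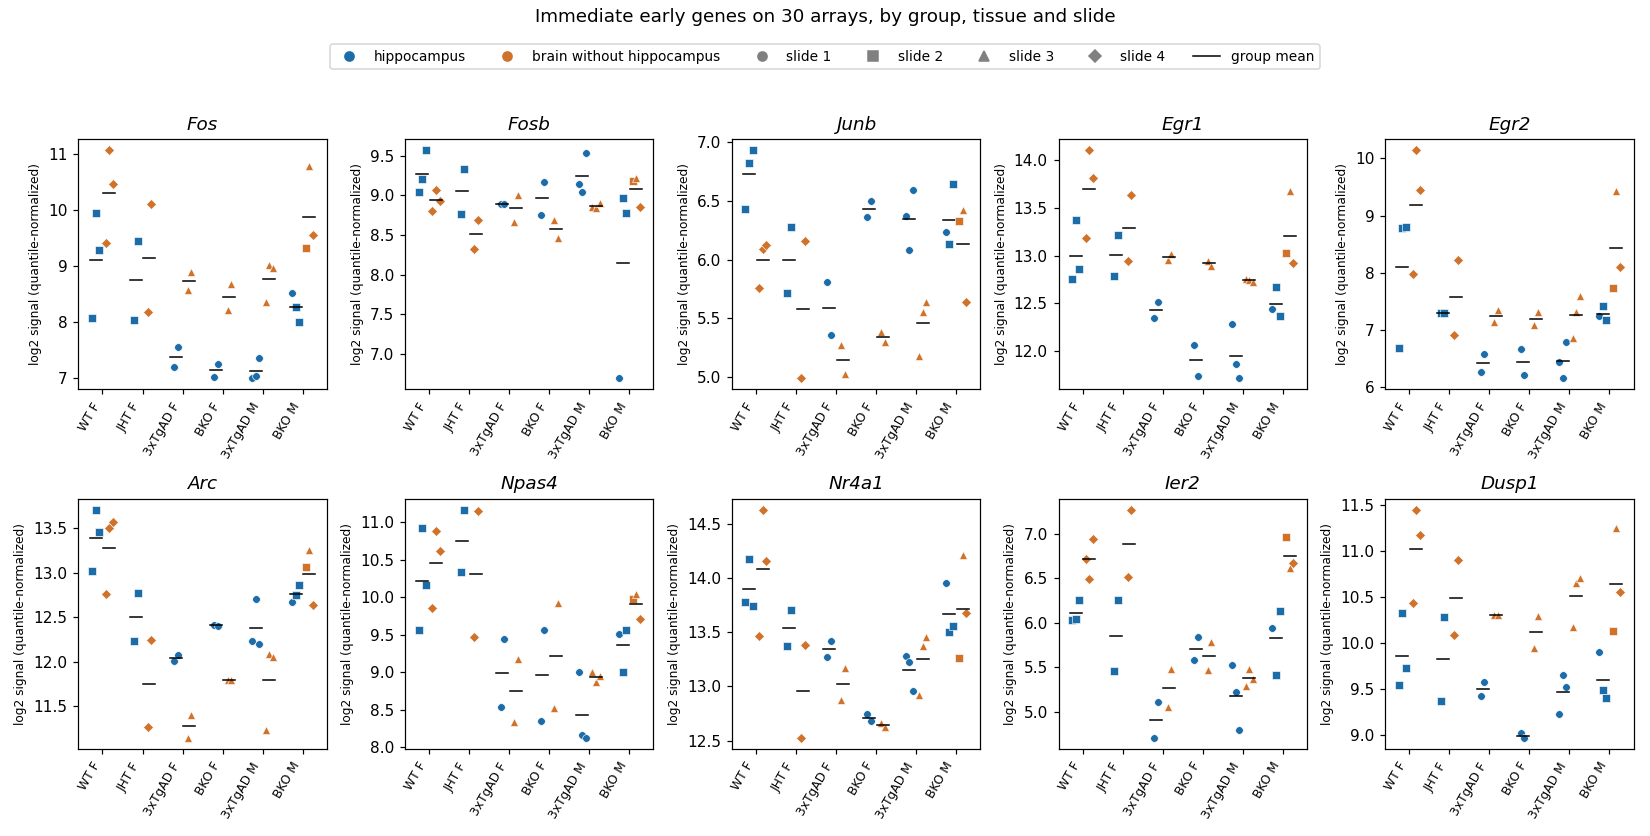
Each panel plots the log2 signal of 1 gene (y axis, own scale) in the 6 groups of genotype and sex (x axis; BKO, 3xTgAD-BKO), with points for single mice, blue for hippocampus, orange for brain without hippocampus, marker shapes for the 4 slides and a black bar for the group mean. Arc separates the WT females from the 3xTgAD females in both tissues, and 1 hippocampal Fosb value of 6.70 lies apart.

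Fos had its highest group mean in WT females and low means in the transgenic groups other than the 3xTgAD-BKO males. In the hippocampus its log2 signal was 8.07, 9.95 and 9.29 in WT females, 8.05 and 9.46 in JHT females, 7.19 and 7.56 in 3xTgAD females, and 7.02 and 7.26 in 3xTgAD-BKO females. It was 7.004, 7.04 and 7.36 in 3xTgAD males and 8.53, 8.27 and 8.003 in 3xTgAD-BKO males. The 7 mice of the other 3 transgenic groups thus all lay under the 8 WT, JHT and 3xTgAD-BKO male mice. These 7 arrays were on slide 1 and the 8 higher ones on slide 2 apart from that of mouse 0, so slide and group are nearly confounded here.

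In the brain the order was alike but the groups met. Fos read 9.41, 11.08 and 10.47 in WT females, 8.18 and 10.12 in JHT females, 8.58 and 8.90 in 3xTgAD females, and 8.21 and 8.68 in 3xTgAD-BKO females. It read 8.36, 9.02 and 8.97 in 3xTgAD males and 9.32, 10.79 and 9.55 in 3xTgAD-BKO males. The JHT mice 13 and 14 differed by more than the WT and 3xTgAD group means did, and JHT mouse 13 had the lowest value of the brain.

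The other AP-1 genes among the members did not share the range of Fos. Junb read 6.44, 6.82 and 6.93 in the hippocampus of WT females against 5.81 and 5.36 in 3xTgAD females, and the other 10 mice lay between 5.72 and 6.65. In the brain Junb ranged from 4.99 in JHT mouse 13 to 6.42 in the 3xTgAD-BKO male mouse 8. Fosb kept within 8.33 to 9.21 in the brain of all 15 mice, and within 8.76 to 9.57 in the hippocampus of 14 mice. The remaining hippocampal value was 6.70, in the 3xTgAD-BKO male mouse 0, whose brain read 9.19. The scanner software did not mark that spot, and the 18 bright spots around it were a median of 0.20 log2 units above the other hippocampal arrays.

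Of the zinc finger factors, Egr2 had the wider range. Its hippocampal signal was 6.69, 8.79 and 8.81 in WT females, 7.30 and 7.29 in JHT females, 6.26 and 6.59 in 3xTgAD females, and 6.67 and 6.22 in 3xTgAD-BKO females. In males it was 6.45, 6.16 and 6.79 in 3xTgAD and 7.24, 7.42 and 7.18 in 3xTgAD-BKO mice, with no overlap. The brain values of Egr2 ran from 6.86 in the 3xTgAD male mouse 3 to 10.14 in WT mouse 11. Egr1 lay between 11.72 and 13.37 in the hippocampus and between 12.72 and 14.10 in the brain, and WT mouse 11 was highest in both.

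Npas4 was highest in JHT mouse 14 in both tissues, at 11.17 in the hippocampus and 11.16 in the brain. WT females read 9.56, 10.93 and 10.17 in the hippocampus and 9.86, 10.89 and 10.62 in the brain. The transgenic mice of both sexes, with or without B cells, ranged from 8.12 to 9.57 in the hippocampus and from 8.33 to 10.04 in the brain. Within the 3xTgAD-BKO females the 2 mice differed by more than 1 unit, at 8.35 and 9.57 in the hippocampus and 8.52 and 9.92 in the brain, and the same mouse was lower in both tissues.

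Nr4a1 was lowest in the 3xTgAD-BKO females, at 12.74 and 12.68 in the hippocampus and 12.66 and 12.62 in the brain, apart from JHT mouse 13 with 12.52 in the brain. In the 3xTgAD-BKO males it read 13.95, 13.50 and 13.56 in the hippocampus and 13.26, 14.22 and 13.67 in the brain. The 3xTgAD mice lay between these groups in the hippocampus, with 13.27 and 13.42 in females and 13.28, 13.22 and 12.95 in males. In the brain they read 12.88 and 13.17 in females and 12.92, 13.38 and 13.45 in males, 2 of which were above the 3xTgAD-BKO male mouse 0. WT females were at 13.78, 14.17 and 13.74 in the hippocampus.

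Arc separated the WT females from all other mice in the hippocampus, with values of 13.02, 13.71 and 13.46. JHT females read 12.23 and 12.78, 3xTgAD females 12.01 and 12.07, and 3xTgAD-BKO females 12.41 and 12.41. In males Arc was 12.23, 12.71 and 12.20 in 3xTgAD and 12.68, 12.75 and 12.87 in 3xTgAD-BKO mice. In the brain WT females read 12.76, 13.50 and 13.58, JHT females 11.26 and 12.25, 3xTgAD females 11.15 and 11.41, and 3xTgAD-BKO females 11.79 and 11.80. There the 3xTgAD-BKO males, at 13.06, 13.26 and 12.64, overlapped with WT females and lay above the 3xTgAD males, at 11.23, 12.09 and 12.06.

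Ier2 followed another order in the brain. The 3 WT females read 6.72, 6.49 and 6.94, the 2 JHT females 6.51 and 7.27, and the 3 3xTgAD-BKO males 6.96, 6.61 and 6.67. The 3xTgAD females read 5.05 and 5.48, the 3xTgAD males 5.29, 5.48 and 5.37, and the 3xTgAD-BKO females 5.47 and 5.78. The brain arrays of slide 4, that of mouse 0 on slide 2 and that of the 3xTgAD-BKO male mouse 8 on slide 3 were at 6.49 or more. The other brain arrays of slide 3 were lower, so slide and group are nearly confounded for this gap. In the hippocampus Ier2 spanned 4.70 to 6.25 with no such gap. Dusp1 ranged from 8.96 to 10.32 in the hippocampus, with both 3xTgAD-BKO females lowest, and from 9.95 to 11.45 in the brain, with WT mouse 11 highest in both tissues.

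Between female 3xTgAD and WT mice the question was what the transgenes do with B cells present. All 10 members had lower means in 3xTgAD females in both tissues, with a median difference of −1.17 log2 units in the hippocampus and −1.26 in the brain, against −0.01 and 0.0008 over all genes. Arc fell in the hippocampus of 3xTgAD females by 1.35 log2 units (SE 0.22, a level 2.56-fold lower), the member past the threshold there at an adjusted p of 0.0259 from limma, where 0.321% of all genes were called lower and 0.746% in either direction. In the brain Arc fell by 2.01 (SE 0.36, 4.02-fold lower, adjusted p = 0.0279 from limma) and Ier2 fell by 1.45 (SE 0.23, 2.73-fold lower, adjusted p = 0.0134 from limma), where 0.621% of all genes were called lower and 1.15% in either direction. Fos (−1.73, SE 0.50, adjusted p = 0.181 from limma) and Egr2 (−1.67, SE 0.52, adjusted p = 0.217) had wider differences of the means in the hippocampus and varied more between mice. Without WT mouse 10 the hippocampal Egr2 difference passed (−2.37, adjusted p = 0.00231 from limma). In the brain Egr2 (−1.95, SE 0.65, adjusted p = 0.256 from limma) and Npas4 (−1.70, SE 0.52, adjusted p = 0.212) followed Arc.

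The values of 3xTgAD and WT females did not overlap for 9 members in the hippocampus, all but Dusp1, and for 9 in the brain, all but Fosb, whereas 18.8% and 19.4% of all genes were lower without overlap. At an unadjusted p under 0.05, 8 members passed in each tissue, against 12% and 11% of all genes. With the slide as a block the Arc difference was −1.22 in the hippocampus (adjusted p = 0.0961 from limma) and −2.63 in the brain (adjusted p = 0.098), and that of Ier2 in the brain −1.39 (adjusted p = 0.164), so none of these 3 calls passed. The member called with the block was Fosb in the hippocampus, where the sign turned (1.80, adjusted p = 0.0175 from limma). The block ties the hippocampal slides together through the 3xTgAD-BKO males alone, 1 of which was mouse 0 with its low Fosb value. The call of Arc in the hippocampus was also lost without either 3xTgAD female (adjusted p = 0.104 without each from limma) and without WT mouse 11 or 12 (0.0717 and 0.0878), at differences of −1.20 to −1.38. In the brain it was lost without the same mice, at 0.147 and 0.0832 without a 3xTgAD female and 0.0789 and 0.0884 without a WT mouse and at differences of −1.86 to −2.14, and that of Ier2 without 3xTgAD mouse 1 (0.0919).

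Marker and context lists were read in the same comparison. The summed level of 8 neuron markers was 18.09 to 18.21 on the log2 scale in the hippocampus of WT females and 18.19 to 18.22 in 3xTgAD females, and 17.93 to 17.94 against 17.92 to 17.98 in the brain. That of 10 endothelium markers was 15.42 to 15.81 in WT against 14.94 to 14.99 in the hippocampus, and 15.65 to 16.17 against 15.16 to 15.24 in the brain. Cldn5, a tight junction gene of vessels, was called lower in the hippocampus (−1.22, SE 0.23, adjusted p = 0.0463 from limma), and 10 and 9 of the 10 endothelium markers had lower means. Of 12 glucocorticoid-responsive genes, 11 had higher means in 3xTgAD in each tissue (medians of 0.38 and 0.64 log2 units), with Zbtb16 called in the brain (1.03, SE 0.14, adjusted p = 0.00675 from limma), and Cdkn1a (1.77) and Sgk1 (1.46) the largest in the hippocampus. Choroid plexus markers were a median of 1.11 higher in the hippocampus and 0.32 lower in the brain on that scale, with none called. In both tissues the ranges of the endothelium sum did not meet between these groups. The part of these lists in the difference of the members was not tested.

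**Figure D2:**
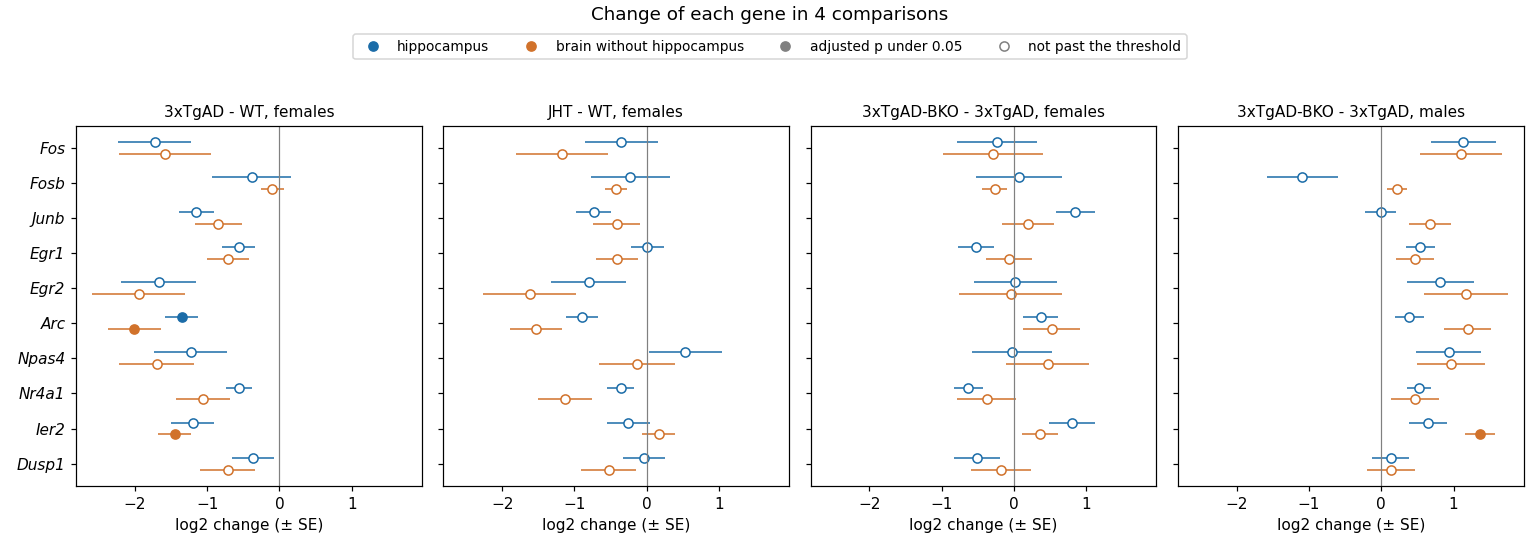
The 4 panels plot the log2 change of each gene (x axis, ± SE from limma) for the gene on the y axis, blue for hippocampus and orange for brain without hippocampus, with filled points past an adjusted p of 0.05. All points of 3xTgAD against WT lie left of 0 with Arc filled in both tissues and Ier2 in the brain, and Ier2 in the brain of males is the filled point at right.

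The other rapid primary-response genes had medians nearer 0 in this comparison, a difference from the members that was not tested. Of 30 such genes, which encode factors and feedback regulators of the same class, none was called in either tissue between 3xTgAD and WT females, and 19 had lower means in the hippocampus (median −0.21) and 14 in the brain (median 0.03). Egr3, the factor most akin to Egr2, was the largest in the hippocampus at −1.53 (SE 0.52, adjusted p = 0.263 from limma), while Maff, a small bZIP factor, was at 1.33 (SE 0.46, adjusted p = 0.272). None of the 14 delayed and effector genes, among them Bdnf at −0.53 (SE 0.14) in the brain and Nptx2 at 0.97 (SE 0.29) in the hippocampus, was called, nor any of the 15 upstream factors and kinases (medians of 0.02 and −0.02) or the 7 heat shock genes (medians of −0.08 and −0.10).

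Between JHT and WT females, on the same slide in each tissue, the question was what the loss of B cells does without the transgenes. In the hippocampus 8 of 10 members and in the brain 9 had lower means in JHT females, with medians of −0.30 and −0.48 log2 units. No member was called by limma in either tissue, where 0.0926% and 0.161% of all genes were, and 2 and 4 members passed an unadjusted p of 0.05, against 7.83% and 6.31% of all genes. Arc differed by −0.89 (SE 0.22, adjusted p = 0.396 from limma) in the hippocampus and by −1.53 (SE 0.36, adjusted p = 0.276) in the brain, without overlap in either. Egr2 was at −0.80 (SE 0.52, adjusted p = 0.786 from limma) and −1.62 (SE 0.65, adjusted p = 0.747). Junb was at −0.73 (SE 0.24, adjusted p = 0.536 from limma) in the hippocampus and Fos at −1.17 (SE 0.63, adjusted p = 0.877) in the brain. With each mouse left out in turn, Egr2 ran from −1.50 (without WT mouse 10) to −0.45 (without WT mouse 12) in the hippocampus and from −2.27 (without JHT mouse 14) to −0.97 (without JHT mouse 13) in the brain. Leaving out JHT mouse 13 brought Junb to −0.45 in the hippocampus and Fos to −0.20 in the brain, and leaving out JHT mouse 14 brought that of Fos to −2.14. Npas4 stood apart with 0.53 (SE 0.50) in the hippocampus and −0.14 (SE 0.52) in the brain. In both tissues 3 members did not overlap, all lower, against 16.8% and 10.9% of all genes. The 8 choroid plexus markers were a median of 5.31 log2 units higher in the hippocampus of JHT females, while the 8 neuron markers differed by a median of −0.03. Endothelium markers had higher means in 9 of 10 cases in the hippocampus (median 0.37) and 8 of 10 in the brain (median 0.17), with none called. The part of these lists in the members' differences was not tested.

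Between 3xTgAD-BKO and 3xTgAD females, on 1 slide in each tissue, no member was called by limma, where 0.37% of all genes were in the hippocampus and 1.12% in the brain. In the hippocampus 3 members passed an unadjusted p of 0.05, against 16.4% of all genes, with Junb at 0.85 (SE 0.27, adjusted p = 0.188 from limma), Ier2 at 0.80 (SE 0.32, adjusted p = 0.256) and Nr4a1 at −0.63 (SE 0.20, adjusted p = 0.188). These 3 and Egr1 (−0.53), Dusp1 (−0.51) and Arc (0.37) did not overlap between 2 and 2 mice, 3 in each direction, against 24.6% of all genes higher and 32.1% lower without overlap. In the brain none passed even the unadjusted threshold, against 12.9% of all genes, and the widest differences were Arc at 0.52 (SE 0.40), Npas4 at 0.47 (SE 0.57) and Nr4a1 at −0.38 (SE 0.41), with adjusted p-values of 0.659, 0.833 and 0.8 from limma. Without the 3xTgAD-BKO mouse 7 that of Npas4 was −0.23, and without 3xTgAD mouse 2 that of Nr4a1 was −0.23. There 2 members were higher and 3 lower without overlap, against 31.6% and 22.6% of all genes. In the other lists, 11 of 12 glucocorticoid-responsive genes had lower means in 3xTgAD-BKO females in both tissues and 8 and 9 of 10 endothelium markers higher means, with none called. The other rapid primary-response genes had lower means in 21 of 30 cases in the hippocampus (median −0.27) and 23 of 30 in the brain (median −0.19). Microglia markers had lower means in 6 of 8 cases in the hippocampus and higher means in all 8 in the brain, with none called in either list. In the hippocampus all 8 choroid plexus markers had higher means (median 1.57) and all 4 CA field markers lower means (median −0.57), with none called. The part of these lists in the members' differences was not tested.

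In males most members had higher means in 3xTgAD-BKO mice. All 10 had higher means in the brain of 3xTgAD-BKO males, with a median of 0.82 log2 units against −0.01 over all genes, and 8 of 10 in the hippocampus with a median of 0.53 against 0.01. Ier2 rose in the brain by 1.36 (SE 0.20, a level 2.57-fold higher, adjusted p = 0.0107 from limma), where 0.526% of all genes were called higher and 0.961% in either direction. Arc at 1.19 (SE 0.32, adjusted p = 0.155 from limma) and Egr2 at 1.17 (SE 0.58, adjusted p = 0.475), or 0.67 without mouse 8, came next, and 6 members did not overlap, all higher, against 7.75% of all genes higher and 8.86% lower. In the hippocampus no member was called by limma, against 0.847% of all genes. Fos was at 1.14 (SE 0.45, adjusted p = 0.223 from limma), Fosb at −1.09 (SE 0.49, adjusted p = 0.272) and Npas4 at 0.93 (SE 0.45, adjusted p = 0.304), and 5 members passed an unadjusted p of 0.05, against 18.2% of all genes. Without mouse 0 the Fosb difference was −0.37 (adjusted p = 0.443 from limma). With the slide as a block Fosb (−2.54, adjusted p = 0.000251 from limma) and Nr4a1 (0.80, adjusted p = 0.0242) passed, a fit that rests on mouse 0 as the 3xTgAD-BKO male on the slide of the 3xTgAD males. On that array the 30 bright spots around Nr4a1 differed from the other hippocampal arrays by a median of −0.36 log2 units, and 9 of them were over 2-fold lower, against 0 or 1 on each of the other 14 arrays. Without overlap 5 members were higher, against 11.2% of all genes, and Fosb lower, against 9.19%.

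The 3 3xTgAD-BKO males lay on 3 slides in the brain and on 2 in the hippocampus, and the 3xTgAD males on 1. On slide 3 alone, where the brain of mouse 8 met the 3 3xTgAD males, its Ier2 was 1.23 higher, its Arc 1.46 higher, its Fos 2.01 higher and its Egr2 2.18 higher. On slide 1 alone the hippocampus of mouse 0 was 1.40 higher in Fos, 1.09 in Npas4 and 0.75 in Ier2, while its differences in Fosb and Junb were −2.54 and −0.11. With the slide as a block the Ier2 difference in the brain was 1.23 (adjusted p = 0.0883 from limma), and without 3xTgAD male mouse 3 it was 1.32 (adjusted p = 0.0506). Endothelium markers had higher means in 9 of 10 cases in the hippocampus (Cldn5 1.09, SE 0.21, adjusted p = 0.0467 from limma) and 10 of 10 in the brain, where their summed level was 15.85 to 16.36 in 3xTgAD-BKO against 15.36 to 15.57 in 3xTgAD males. Choroid plexus markers differed by a median of −2.48 in the hippocampus between 3xTgAD-BKO and 3xTgAD males, and microglia markers had higher means in 7 of 8 cases in each tissue, with Trem2 called in the brain (0.59, SE 0.09, adjusted p = 0.0123 from limma). In the hippocampus neuron markers had lower means in 6 of 8 cases (median −0.29) and oligodendrocyte markers in 5 of 6 (median −0.42), with none called, and of 6 striatum markers Drd2, a dopamine receptor, was called lower (−1.21, SE 0.17, adjusted p = 0.0117 from limma). The part of these lists in the members' difference was not tested. Of the other rapid primary-response genes, Ier3 rose in the hippocampus (1.59, SE 0.28, adjusted p = 0.0358 from limma) and Atf3, a stress-induced bZIP factor, rose in the brain (0.84, SE 0.14, adjusted p = 0.024), and none fell. No gene of the delayed, upstream, glucocorticoid-responsive or heat shock lists was called in males in either tissue.

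The difference of the female and the male change was tested directly. No member passed in either tissue by limma, where 0.0245% of all genes did in the hippocampus and 0.101% in the brain, and 3 members and 1 passed an unadjusted p of 0.05, against 21.2% and 8.75% of all genes. Nr4a1 came closest in the hippocampus, where the change of females was 1.15 below that of males (SE 0.26, adjusted p = 0.0732 from limma), followed by Egr1 with −1.07 (SE 0.32, adjusted p = 0.102). Fos with −1.37 (SE 0.71, adjusted p = 0.302 from limma) and Fosb with 1.16 (SE 0.78, adjusted p = 0.426) were wider but less precise. In both sexes the Nr4a1 values of the genotypes did not overlap, lower in 3xTgAD-BKO females and higher in 3xTgAD-BKO males. The Nr4a1 difference passed with the slide as a block (−1.43, adjusted p = 0.00721 from limma), as did that of Fosb (2.61, adjusted p = 0.00196), in a fit that again rests on mouse 0 for the males. Without mouse 0 and without the block that of Fosb was 0.44 (adjusted p = 0.471 from limma) and that of Nr4a1 −1.01 (adjusted p = 0.0736). That of Nr4a1 also passed with dim probes left out (adjusted p = 0.0485) and without the 3xTgAD-BKO male mouse 9 (adjusted p = 0.0457). In the brain all 10 differences were negative, with a median of −0.60, and Fos (−1.40), Egr2 (−1.22) and Ier2 (−1.01) were the largest, with adjusted p-values of 0.67, 0.72 and 0.409 from limma. Without mouse 8 that of Egr2 was −0.72. In the lists, with none called, 11 of 12 glucocorticoid-responsive genes in the hippocampus and all 12 in the brain had negative differences (medians −0.35 and −0.28), as did 24 of 30 other rapid primary-response genes in the brain (median −0.33). In the hippocampus 7 of 8 microglia markers were negative (median −0.70) and all 8 choroid plexus markers positive (median 3.95). The part of these lists in the members' differences was not tested.

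Between 3xTgAD-BKO and JHT females, which share the deletion and differ in the transgenes, no member was called by limma, against 0.229% of all genes in the hippocampus and 0.667% in the brain. In the hippocampus 5 members passed an unadjusted p of 0.05, against 9.78% of all genes, and Npas4 (−1.79, SE 0.55, adjusted p = 0.374 from limma), Fos (−1.61, SE 0.55, adjusted p = 0.412) and Egr1 (−1.10, SE 0.25, adjusted p = 0.197) were the largest. Without overlap 6 members were lower, against 25.3% of all genes, and Junb higher, against 21.1%. In the brain 1 member passed an unadjusted p of 0.05, against 10.6% of all genes, which was Ier2 at −1.27 (SE 0.25, adjusted p = 0.0571 from limma), and this passed without JHT mouse 13 (−1.64, adjusted p = 0.00753) and with dim probes left out (adjusted p = 0.0392). Npas4 at −1.10 (SE 0.57, adjusted p = 0.536 from limma) and Fos at −0.70 (SE 0.69, adjusted p = 0.807) came next in size. Without JHT mouse 14 the brain differences were −0.89 for Ier2, −0.25 for Npas4 and 0.27 for Fos, and without JHT mouse 13 they were −1.94 for Npas4 and −1.67 for Fos. With the slide as a block Ier2 was at −1.21 (adjusted p = 0.359 from limma). Without JHT mouse 14 the hippocampal Fos difference was −0.91 (adjusted p = 0.933 from limma), and without the 3xTgAD-BKO mouse 6 that of Npas4 was −1.18 (adjusted p = 0.504). With the slide as a block Nr4a1 (−1.25, adjusted p = 0.0208 from limma) passed in the hippocampus, as did Fosb with the sign turned from −0.087 to 2.09 (adjusted p = 0.00993). That block too joins the slides through the 3xTgAD-BKO males, mouse 0 with its Fosb value of 6.70 among them. In the hippocampus all 8 choroid plexus markers had lower means in 3xTgAD-BKO females (median −2.12), as did 8 of 10 endothelium markers (median −0.31) and all 4 CA field markers (median −0.37), with none called, and in the brain all 10 endothelium markers did (median −0.24). The other rapid primary-response genes had lower means in 24 of 30 cases in the hippocampus (median −0.27) and 23 of 30 in the brain (median −0.14). Of the 14 delayed and effector genes 12 and 10 had lower means (medians −0.27 and −0.14), with none called in either list. The part of these lists in the members' differences was not tested. The groups lay on different slides, so genotype and slide cannot be told apart.

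Over the 15 mice the 2 tissues differed in 7 members by limma, 2 higher and 5 lower in the hippocampus, against 51.1% of all genes (25.1% higher and 26% lower). The same 7 passed an unadjusted p of 0.05, against 55.3% of all genes. As hippocampus minus brain, Fos differed by −1.26 log2 units (SE 0.24, adjusted p = 0.000156 from limma), Egr1 by −0.68 (SE 0.11, adjusted p = 2.33e-05) and Dusp1 by −0.98 (SE 0.14, adjusted p = 5.88e-06), each lower in the hippocampus in all 15 mice. Egr2 was at −0.81 (SE 0.25, adjusted p = 0.00872 from limma) and lower in 14 of 15 mice, and Ier2 at −0.51 (SE 0.11, adjusted p = 0.000547) and lower in 12. Junb was higher in the hippocampus by 0.63 (SE 0.12, adjusted p = 0.000147 from limma) and in 13 mice, and Arc by 0.43 (SE 0.13, adjusted p = 0.00637) and in 12. Fosb at 0.12 (SE 0.17, adjusted p = 0.579 from limma), Npas4 at −0.15 (SE 0.22, adjusted p = 0.606) and Nr4a1 at 0.11 (SE 0.12, adjusted p = 0.51) were not called.

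The tissues were nearly confounded with slides. With the slide as a block, none of these 7 calls was kept and Fosb alone was called (1.22, adjusted p = 0.00945 from limma). Of the 7, Arc (0.45), Junb (0.50) and Ier2 (−0.91) were of similar or larger size with the block, Fos (−0.57), Egr1 (−0.31) and Dusp1 (−0.45) were smaller, and Egr2 turned to 0.31. The block compares the tissues through slide 2 alone, which held 7 hippocampal arrays and the brain of mouse 0. Without mouse 0 and without the block the Fosb difference was 0.25 (adjusted p = 0.0165). With scaling to the 75th percentile the call of Ier2 was lost (−0.24, adjusted p = 0.0851). Of the 30 other rapid primary-response genes 6 were called higher and 10 lower in the hippocampus, among them Nr4a3 2.12 and Jun 1.26 higher in the hippocampus, and Ier3 1.07 and the matrix gene Ccn2 1.12 higher in the brain. The change of 3xTgAD-BKO against 3xTgAD females did not differ between tissues for any member by limma, against 0.123% of all genes, and none passed an unadjusted p of 0.05, against 9.9% of all genes.

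The levels of most members were correlated from mouse to mouse. In the hippocampus the median Pearson r of the 45 pairs of members over the 15 mice was 0.60, against 0.009 over all pairs of the 20118 genes well above background, of which 6.30% were at or above the median of the members. In the brain it was 0.73, against 0.004, and 2.08% of all pairs were at or above it. By permutation test (two-sided, 100000 resamples, Benjamini-Hochberg over the 90 pairs of both tissues) 27 of 45 pairs passed in the hippocampus and 39 of 45 in the brain, all positive.

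**Figure D3:**
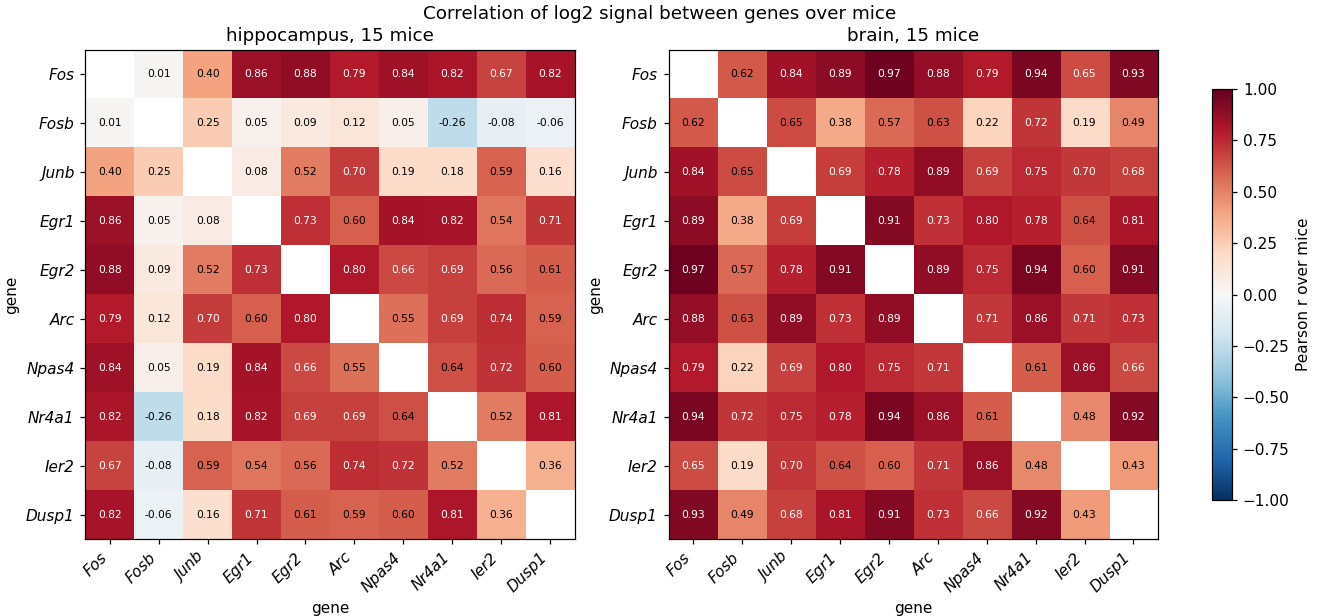
Both heat maps show the Pearson r over 15 mice between the genes on the x and y axes, hippocampus left and brain right, on a colour scale from −1 (blue) to 1 (red). The brain map holds positive values throughout, with the Fos and Egr2 pair at 0.97 and pale cells for Fosb with Ier2 (0.19) and Npas4 (0.22). In the hippocampus the Fosb row is pale and the Junb row light.

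The closest pair in both tissues was Fos and Egr2, with r = 0.88 in the hippocampus (rho = 0.84, permutation p = 4e-05, adjusted p = 0.000346, r = 0.91 without the 2 mice farthest from the median of Fos) and r = 0.97 in the brain (rho = 0.975, permutation p = 1e-05, the smallest the resamples give, adjusted p = 0.00015, r = 0.95 without the 2 mice). In the brain Egr2 and Nr4a1 (r = 0.94, rho = 0.91, permutation p = 1e-05, adjusted p = 0.00015), Fos and Nr4a1 (r = 0.94, rho = 0.93, permutation p = 1e-05, adjusted p = 0.00015) and Fos and Dusp1 (r = 0.93, rho = 0.87, permutation p = 2e-05, adjusted p = 0.000225) followed, with r of 0.89, 0.89 and 0.85 without the 2 farthest mice. In the hippocampus Fos and Egr1 (r = 0.86, rho = 0.84, permutation p = 3e-05, adjusted p = 0.0003) and Fos and Npas4 (r = 0.84, rho = 0.74, permutation p = 8e-05, adjusted p = 0.00045) followed, with r of 0.73 and 0.70 without the 2 farthest mice. Fosb had no called partner among the other 9 in the hippocampus, where its r ran from −0.26 with Nr4a1 to 0.25, and 5 in the brain. Without mouse 0 its hippocampal r with Fos was 0.41 and with Dusp1 0.44. Junb had 2 called partners in the hippocampus and 9 in the brain.

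Within slides and groups the median r was lower in the hippocampus than in the brain, without a test of that difference. Within slides the median r of the 45 pairs was 0.21 over the 8 hippocampal arrays of slide 1 (30 of 45 positive), 0.60 over the 7 of slide 2, 0.81 over the 8 brain arrays of slide 3 and 0.83 over the 6 of slide 4 (44 of 45 positive). As deviations from the mean of each genotype and sex group, the median r was 0.40 in the hippocampus and 0.67 in the brain, and by exact permutation within groups 0 and 6 pairs passed. The smallest p this test allows is 0.000579. The 6 pairs were all those among Fos, Egr2, Nr4a1 and Dusp1 in the brain, with r of 0.95 to 0.97. Without the 2 mice farthest from the median of the first gene, 14 pairs of the hippocampus passed. The same mice led in most members: WT mouse 11 was among the 3 highest in 8 of 10 members in each tissue, WT mouse 12 in 7 in the hippocampus and 8 in the brain, and the 3xTgAD-BKO male mouse 8 in 8 in the brain but 1 in the hippocampus. JHT mouse 13 was among the 3 lowest in 7 members in the brain.

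A mouse high in 1 tissue was mostly high in the other. Over the 15 mice the signals of hippocampus and brain correlated in 8 of 10 members by permutation test (Benjamini-Hochberg over the 10), with a median r of 0.82 against 0.10 over the 19488 genes well above background on all arrays, of which 2.78% were at or above the median of the members. Arc was highest (r = 0.89, rho = 0.87, permutation p = 2e-05, adjusted p = 0.0001), then Npas4 (r = 0.86, rho = 0.81, permutation p = 2e-05, adjusted p = 0.0001), Egr2 (r = 0.85, rho = 0.69, permutation p = 0.0002, adjusted p = 0.0004), Fos (r = 0.83, rho = 0.78, permutation p = 0.00015, adjusted p = 0.000375) and Egr1 (r = 0.83, rho = 0.86, permutation p = 4e-05, adjusted p = 0.000133). Ier2 (r = 0.81), Nr4a1 (r = 0.68) and Dusp1 (r = 0.63) also passed, at adjusted permutation p-values of 0.000717, 0.00789 and 0.014. Junb (r = 0.51, adjusted permutation p = 0.0592) and Fosb (r = −0.28, adjusted permutation p = 0.305) did not, and without mouse 0 the r of Fosb was 0.25 and that of Junb 0.56, which then passed.

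The relation was weaker within groups and slides. Without the 2 mice farthest from the median of the hippocampus, r was 0.83 for Arc, 0.74 for Npas4, 0.60 for Egr2, 0.73 for Fos and 0.69 for Egr1, 0.74 for Ier2, 0.46 for Nr4a1 and 0.40 for Dusp1. As deviations from the group means, r was 0.80 for Npas4, 0.79 for Fos, 0.71 for Egr1, 0.68 for Arc, 0.67 for Egr2, 0.64 for Ier2, 0.48 for Dusp1, 0.28 for Junb, 0.12 for Nr4a1 and −0.096 for Fosb, and no member passed after adjustment by exact permutation within groups (lowest adjusted p = 0.0637, Egr1). Deviations from the slide means were taken without mouse 0, whose brain array was the only array of its tissue on slide 2. There r of the members other than Fosb (0.25) ranged from 0.07 for Ier2 to 0.66 for Arc, and no member passed the permutation test (lowest adjusted p = 0.113).

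**Figure D4:**
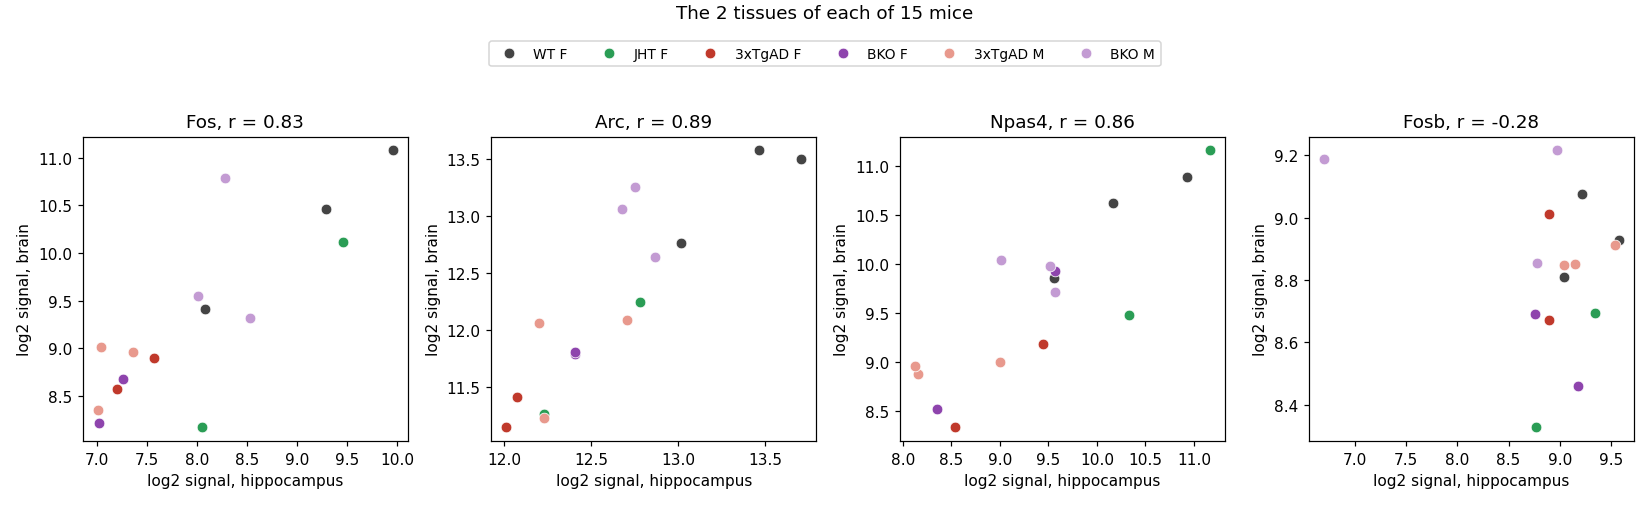
Each panel plots the log2 signal of 1 gene in the hippocampus (x axis) and the brain (y axis) for 15 mice, coloured by genotype and sex (BKO, 3xTgAD-BKO). Fos, Arc and Npas4 slope upward with WT mice 11 and 12 toward the upper right, while Fosb has 1 mouse at a hippocampal value of 6.70 and no slope.

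Correlations with Fos were computed for 147 genes of the lists in each tissue, 294 in all, and adjusted over them by Benjamini-Hochberg. Of the 30 other rapid primary-response genes, Klf2 passed in the hippocampus (r = 0.80, rho = 0.88, permutation p = 0.00034, adjusted p = 0.0143), and Klf2, Klf4, Egr4, Sik1, Per1, Dusp6 and Trib1 passed in the brain. There Sik1, a kinase that restrains CREB coactivators, had r = 0.89 (rho = 0.91, permutation p = 3e-05, adjusted p = 0.00221), Egr4 r = 0.88 (rho = 0.87, permutation p = 2e-05, adjusted p = 0.00221) and Dusp6, a phosphatase of ERK, r = 0.88 (rho = 0.85, permutation p = 3e-05, adjusted p = 0.00221), with r of 0.89, 0.77 and 0.84 without the 2 mice farthest from the median of Fos. The clock gene Per1 had r = 0.75 and 0.49 without those 2 mice. The median r of the 30 genes with Fos was 0.40 in the hippocampus and 0.32 in the brain, against 0.03 and −0.02 over all genes well above background.

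The remaining lists differed in their median r with Fos. The delayed and effector genes had a median r with Fos of 0.17 and 0.05, the upstream factors 0.14 and −0.05, and neither list had a called gene. The heat shock genes had medians of 0.34 and 0.35. Of these Dnajb1 passed in the hippocampus (r = 0.82, rho = 0.86, permutation p = 0.0002, adjusted p = 0.0098) and Hspe1 in the brain (r = 0.79, rho = 0.78, permutation p = 0.00057, adjusted p = 0.021). Endothelium markers had a positive r with Fos in 9 of 10 cases in the hippocampus (median 0.43) and 10 of 10 in the brain (median 0.35), with none called. Glucocorticoid-responsive genes had a median r of −0.28 in the hippocampus and −0.004 in the brain, and neuron markers −0.36 and −0.15, with none called in either list. Oligodendrocyte markers had medians of −0.37 and −0.32, with 1 of 6 positive in each tissue. Astrocyte markers had medians of 0.0003 and −0.19, with 3 and 0 of 6 positive, and none was called in these 2 lists. Of the markers of other cell types, the striatal gene Adora2a passed in the brain with a negative r (−0.75, rho = −0.68, permutation p = 0.00097, adjusted p = 0.0259).

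**Figure D5:**
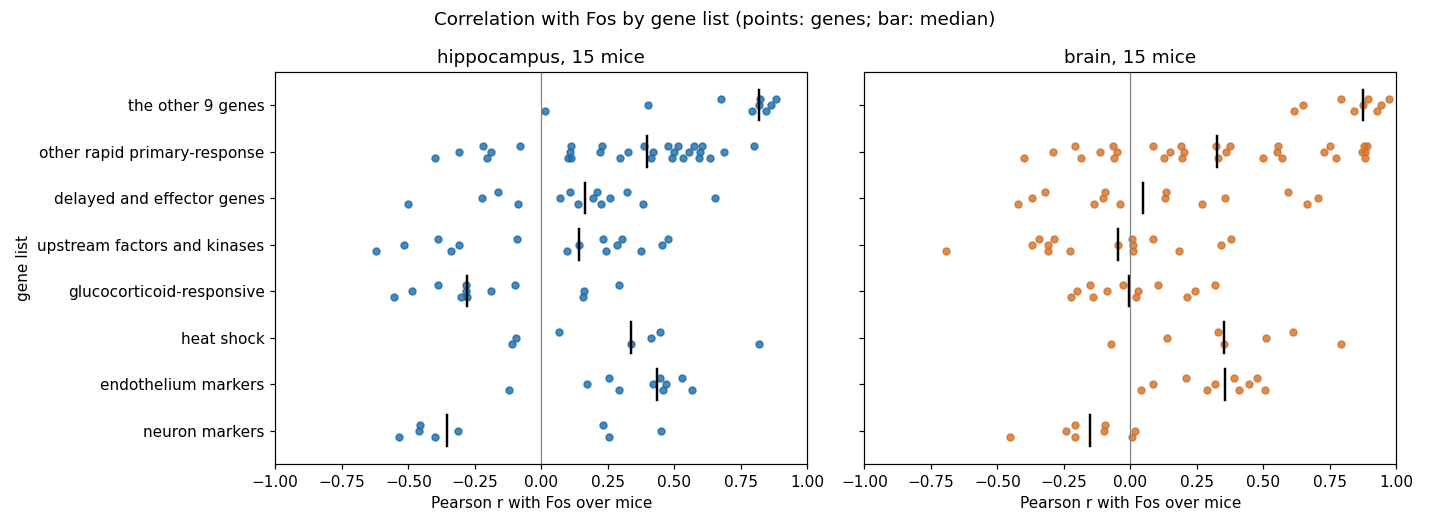
Points show the Pearson r with Fos over 15 mice (x axis) of each gene of the list on the y axis, hippocampus left and brain right, with a black bar at the median of the list. The bars of the other 9 members stand at 0.82 and 0.88, and those of the 30 other rapid primary-response genes at 0.40 and 0.32, with the Fosb point near 0 in the hippocampus.

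By the mean r with the 10 members, as deviations from the group means, the genes outside all lists most like them in the brain were Cadm4 (mean r = 0.76), Matn4 (0.74) and Sh3bp2 (0.74) among 20868 genes over 15 arrays, with 2 further transcripts that carry no symbol. In the hippocampus they were Lrrc57 (mean r = 0.53) and AK085995 (0.53) among 19973 genes, with 3 transcripts without a symbol. These are given as a description, with no test.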

How the data were processed

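RNA from 2 tissues of 15 mice was hybridised to 30 1-colour Agilent arrays, 1 for each mouse and tissue. Per the file headers the deposited intensity is the background-subtracted processed signal of Agilent Feature Extraction. The score table deposited by the authors holds 1 Z-like score per spot, which correlated with the log10 processed signal at r = 1.0 and served as an alternative. Outlier spots and 3671 control spots of 62976 were left out, spots of a probe were averaged, and log2 signals were quantile-normalized over all arrays. The probe of the highest mean stood for each of 36717 genes or transcripts, 21368 of them with a symbol from RefSeq. The number of arrays limits the precision.

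Each tissue was fitted with limma 3.58.1 (R 4.3.3) over 6 groups of genotype and sex, and tissue contrasts over all 30 arrays, with Benjamini-Hochberg adjustment over all genes and a threshold of 0.05. Tested on simulated data with 200 genes shifted by 2 log2 units, 135 and 139 were called in the 3xTgAD against WT fits of hippocampus and brain, and 197 between tissues. Correlations over mice were tested by permutation (100000 resamples, two-sided), and deviations from group means by all 1728 arrangements within groups. Alternatives were other scalings and background corrections, the deposited scores, dim probes left out, the slide or the mouse as a block, fewer or all arrays in the fit, the t-test of the methods, and leaving out each mouse. Leaving out mouse 0 in the correlations, the slide deviations and the 75th percentile scaling there were added after seeing the data.

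Named were all members, with full statistics between tissues, and in genotype comparisons for those past the threshold and the 3 of largest change. The rule for each context list was to name its called genes or else the 2 of largest change. It was kept in part, since many lists, and most lists between tissues, are given by counts and medians alone. The members and lists were chosen with earlier results of these data known. The number in the titles was taken to pair the tissues of 1 animal. Over 19488 genes the r of same-number deviations had a median of 0.104 (−0.179 to 0.24, over 0.1 in 8 of 15 pairs). The median for other numbers of the group, −0.0446, is no separate check, because deviations from a mean cancel out within a group.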

Additional observations from a re-analysis of the deposited data

Results flagged for a closer look

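In 40 sets of 1 member in 1 tissue and the 5 mice of 1 transgenic genotype, both sexes together, 3 held a mouse far from the rest by Dixon's ratio of gap to range (critical value 0.71 for 5 samples), a rule that chance meets in about 1 of 20 sets. Fosb in the hippocampus of the 3xTgAD-BKO male mouse 0 had a ratio of 0.832, at 6.70 log2 units against 8.76 for the next mouse. Egr1 in the brain of the 3xTgAD-BKO male mouse 8 had a ratio of 0.828, at 13.67 against 13.03. Npas4 in the brain of the 3xTgAD-BKO female mouse 6 had a ratio of 0.782, at 8.52 against 9.71. The brain value of Fosb in mouse 0 was 9.19, and the hippocampal Egr1 of mouse 8 was 12.67, the highest of that genotype, and the hippocampal Npas4 of mouse 6 was 8.35, the lowest of that genotype. The cause of each was not tested.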

How the results depend on the processing

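Counts of called members are of 10. Between 3xTgAD and WT females, 1 was called in the hippocampus and 2 in the brain. With only the groups compared and with the methods' t-test after Benjamini-Hochberg, 0 were called in either tissue, and by the unadjusted t-test 3 and 4. In the hippocampus normexp and leaving out dim probes gave 2, and all 30 arrays in one fit gave 3. Leaving out each mouse gave 0 to 2 in each tissue. The brain count was 0 with the slide block. Between 3xTgAD-BKO and 3xTgAD males the brain count of 1 became 0 with the slide block and with the adjusted t-test, 2 with all 30 arrays, 3 by the unadjusted t-test, and 0 to 1 with each mouse left out. The hippocampal count of 0 became 2 with the slide block and 4 by the unadjusted t-test, which gave 3 in females and 1 between 3xTgAD-BKO and JHT females in the hippocampus, where the slide block gave 2. In the brain that last count of 0 became 1 with dim probes left out, and 0 to 1 with each mouse left out. All 30 arrays gave 1 between JHT and WT in the brain. The sex difference in the hippocampus had 1 call with dim probes left out, 2 with the slide block and 0 to 1 with each mouse left out. Between tissues the slide block lost all 7 calls, with Arc (0.45), Junb (0.50) and Ier2 (−0.91) of similar or larger size, and gave 1 other, Fosb, and the mouse as a replicate block kept 7, with Fosb at 0.12 (adjusted p = 0.577 from limma), and changed no call there. Pairs called fell from 27 to 0 in the hippocampus and from 39 to 6 in the brain as deviations from group means, with median r of 0.402 and 0.674, and to 14 in the hippocampus without the 2 farthest mice. Median r was 0.213 within slide 1, 0.811 within slide 3 and 0.832 within slide 4. Between tissues, 0 members passed as deviations from group means and 0 from slide means. The sign turned with the slide block for hippocampal Fosb between 3xTgAD and WT (−0.38 to 1.80) and between 3xTgAD-BKO and JHT females (−0.087 to 2.09), and, in differences that were under 0.1 without the block and called in neither fit, for Fosb in the brain and Arc in both tissues between 3xTgAD-BKO and JHT females and for Arc in the hippocampal sex difference. It also turned for Npas4 in the brain of females without 3xTgAD-BKO mouse 7 (range over the mice left out −0.23 to 1.17), Fos in the brain between 3xTgAD-BKO and JHT without JHT mouse 14 (range −1.67 to 0.27), Egr2 between tissues with the slide block (0.31) and the between-tissue r of Fosb without the 2 farthest mice (0.204), without mouse 0 (0.248) and from slide means (0.248). The setting of slide means also left out mouse 0. The cause was not tested.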
